A study of Homo sapiens with 15 samples.

Results

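The BH3-only genes are a family of 8 genes measured here by RNA sequencing: BBC3 (protein PUMA), BCL2L11 (BIM), BID, PMAIP1 (NOXA), BAD, BMF, HRK and BIK. They were chosen by name and not by a cut on measured values, but with earlier results of these data known. They are 8 of the 60670 genes kept from the count table, and all 8 were among the 18563 genes with enough counts to be tested. HT-1080, a line from a human fibrosarcoma, was sampled in 5 groups of 3 libraries that the labels call biological replicates. The groups were cycling cells in the vehicle DMSO for 6 h, senescent cells in DMSO for 6 h, senescent cells in 1 uM GNF-7 for 6 h, senescent cells in DMSO for 24 h and senescent cells in 1 uM GNF-7 for 24 h. Every senescent group had expressed a dominant negative mutant of the telomere protein TRF2 (gene TERF2) for 6 days, which uncaps telomeres. All cells were grown in tetracycline-free serum at low oxygen. The promoter of the mutant, whether the cells were a single clone, and whether the cycling cells carried the construct are not given in the labels. Cycling cells in GNF-7 or at 24 h were not analysed here, so each GNF-7 value is from senescent cells. GNF-7 inhibits tyrosine kinases, and by the title of the study it acts on senescent cells through the stress kinase GCN2.

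BH3-only proteins start the mitochondrial path of cell death. Each carries a single short helix, the BH3 domain, which docks into a groove on the survival proteins BCL2, BCL-XL (gene BCL2L1) and MCL1, and some of them also switch on the pore-forming effectors BAX and BAK (gene BAK1) directly. The pores release cytochrome c, which activates CASP9. Many BH3-only genes are controlled by transcription, with p53, FOXO factors and the stress factors ATF4 and CHOP (gene DDIT3) among the known regulators, while BID and BAD are largely controlled at the protein. Senescent cells are known to lean on BCL2 family survival proteins, which is why drugs that mimic the BH3 helix have been used against them. Protein was not measured here.

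The stretch of coding sequence that defines the family is shown because it is what the 8 genes have in common. Each is the core of the BH3 helix with 3 codons on either side, 5′ to 3′ on the coding strand, from the GENCODE 29 transcripts. The first capitals are the codon of the conserved leucine and the second are the codons of a small residue and of the conserved aspartate.
BBC3: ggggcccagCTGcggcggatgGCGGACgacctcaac
PMAIP1: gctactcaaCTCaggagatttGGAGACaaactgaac
BCL2L11: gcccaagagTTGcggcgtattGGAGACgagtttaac
BID: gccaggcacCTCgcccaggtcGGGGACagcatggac
BIK: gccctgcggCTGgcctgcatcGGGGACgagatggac
BAD: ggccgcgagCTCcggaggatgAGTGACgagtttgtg
BMF: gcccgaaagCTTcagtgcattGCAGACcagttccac
HRK: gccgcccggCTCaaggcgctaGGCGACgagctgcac
The motif searched was a leucine, any 3 residues, a glycine, alanine or serine, and an aspartate, and all 8 genes held it. The small residue was glycine in 5 genes (PMAIP1, BCL2L11, BID, BIK and HRK), alanine in BBC3 and BMF, and serine in BAD. A second match was found in BID, at another place in the protein. On GRCh38 the stretches lie at chr19:47226582-47226617 (BBC3, minus strand), chr18:59902664-59902699 (PMAIP1, plus strand), chr2:111150094-111150129 (BCL2L11, plus strand), chr22:17739418-17739453 (BID, minus strand), chr22:43127707-43127742 (BIK, plus strand), chr11:64271625-64271660 (BAD, minus strand), chr15:40104198-40104233 (BMF, minus strand) and chr12:116881173-116881208 (HRK, minus strand). Each falls within 1 coding exon, which is exon 1 of the transcript used for HRK, exon 2 for PMAIP1, exon 3 for BBC3, BIK and BAD, and exon 4 for BCL2L11, BID and BMF. A single transcript annotated as principal was used per gene, and the proteins these encode range from 54 residues (PMAIP1) to 241 residues (BID). Lengths can differ for other transcripts of the same gene.

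Library totals ranged from 25991007 to 32323393 counts, and levels are given as CPM, a count divided by its scaled library size. TERF2 averaged 58.2 ± 3.65 CPM (SD, n = 3) when cycling and 287 ± 8.17 CPM when senescent (vehicle, 6 h), and its counts mix the cells' own gene with the introduced mutant. The senescence-associated cell cycle inhibitor CDKN1A was higher (186 ± 2.54 against 501 ± 8.96 CPM). The proliferation gene MKI67 (509 ± 24.3 against 149 ± 3.35 CPM) and the lamin gene LMNB1 (234 ± 8.53 against 32.2 ± 1.16 CPM) were lower. These genes were not constant among the senescent groups either. With GNF-7 at 6 h and 24 h the log2 fold changes were -0.37 and -0.73 for TERF2 and -0.38 and -1.68 for MKI67. They were -0.401 and -1.55 for LMNB1 and 0.047 and -0.26 for CDKN1A. In vehicle from 6 h to 24 h TERF2 was at -0.39, MKI67 at -0.25, CDKN1A at 0.16 and LMNB1 at -0.0047. Whether the BH3-only changes with GNF-7 followed these shifts was not tested. Of 8 mesenchymal markers, which summed to between 6325 and 10980 CPM in a library with the lowest sums in GNF-7 at 24 h, THY1 had 0 counts in every library and TAGLN was at 0.881 to 5.58 CPM. Summed epithelial, leukocyte and endothelial markers reached at most 2.61, 1.04 and 2.06 CPM. The mitochondrial share of counts rose from a median of 4.20% in cycling cells to 11.7% and 13.8% in vehicle and GNF-7 at 6 h and 17.0% and 23.2% at 24 h, and among the groups GNF-7 at 6 h (up to 15.3%) and vehicle at 24 h (from 15.1%) overlapped. A fit without mitochondrial genes left every BH3-only call as it was.

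Senescent cells had more BBC3, BMF and BCL2L11 RNA and less BID, PMAIP1 and BAD RNA than cycling cells. GNF-7 raised HRK, BCL2L11, PMAIP1 and BBC3 in senescent cells within 6 h and lowered BID. At 24 h the rises in BCL2L11 and PMAIP1 were smaller, the fall in BID was deeper, and BMF was called higher. The rise in HRK was larger, against near-empty vehicle libraries. BAD was called lower, against vehicle cells that had gained BAD since 6 h. BIK was at the edge of detection. Calls are adjusted p-values under 0.05 from the edgeR quasi-likelihood test over all libraries, with Benjamini-Hochberg adjustment over all genes tested, and every adjusted p below is from that fit unless another is named. In bulk RNA, fewer cells with a transcript and less of it per cell cannot be told apart.

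The counts of calls stand beside the background of all genes tested. In senescent against cycling cells 6 of 8 members were called, 3 higher and 3 lower, where 70.0% of all genes were called, 35.6% higher and 34.4% lower. With GNF-7 at 6 h 5 of 8 were called, 4 higher and 1 lower, against 39.3% of all genes, 17.9% higher and 21.4% lower. With GNF-7 at 24 h 7 of 8 were called, 5 higher and 2 lower, against 58.9%, 29.3% higher and 29.7% lower. In senescence and with GNF-7 at 24 h most genes were called, so a call there sets no member apart. The median log2 fold change of the members was -0.01 in senescent against cycling cells, 0.26 with GNF-7 at 6 h and 0.32 at 24 h, where the medians of all genes were 0.06, 0.01 and 0.04. The first comparison and the GNF-7 comparison at 6 h share the senescent vehicle libraries of 6 h. How the GNF-7 effect changed between the times (the effect at 24 h minus that at 6 h, or interaction) was called for 5 of 8 members, 1 higher and 4 lower, against a background of 30.8%, 12.8% higher and 18.0% lower. The member called higher there is HRK, which is also among those called higher with GNF-7 at both times. HRK was tested only because its GNF-7 libraries passed the filter, so its place in these counts is no independent sign of a rise. Its interaction rests on vehicle groups of 17 counts at 6 h and 3 at 24 h.

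**Figure D1:**
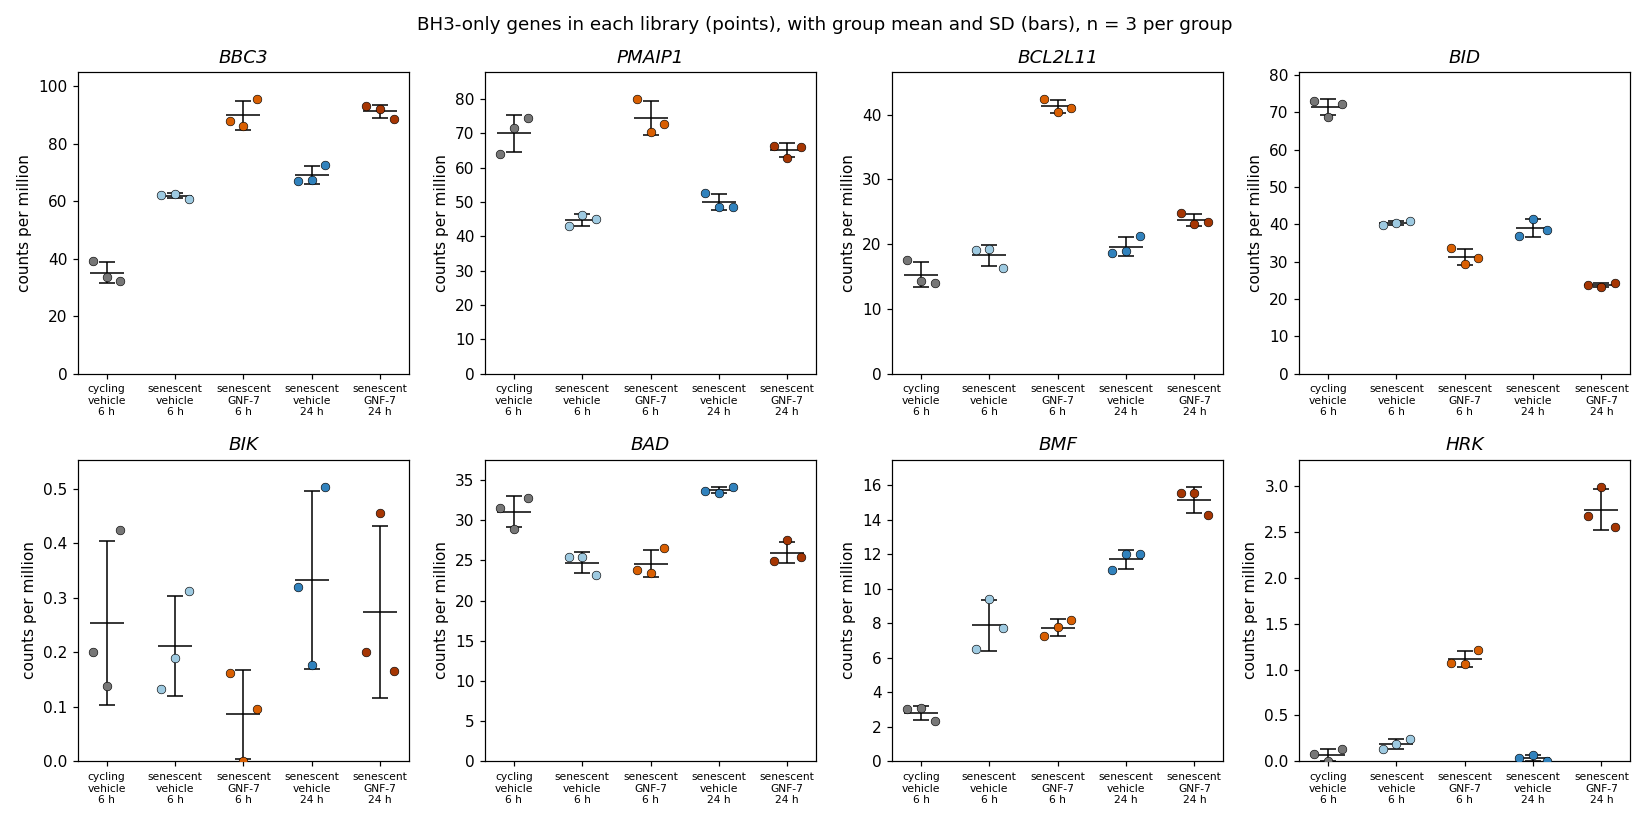
CPM of each BH3-only gene (vertical axes start at 0 and differ between panels) in the 15 libraries, with points for libraries and bars for the group mean and SD (n = 3). BCL2L11 peaks in GNF-7 at 6 h (mean 41.3 CPM), HRK in GNF-7 at 24 h (mean 2.74 CPM), and BID is highest in cycling cells (mean 71.3 CPM).

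**Figure D2:**
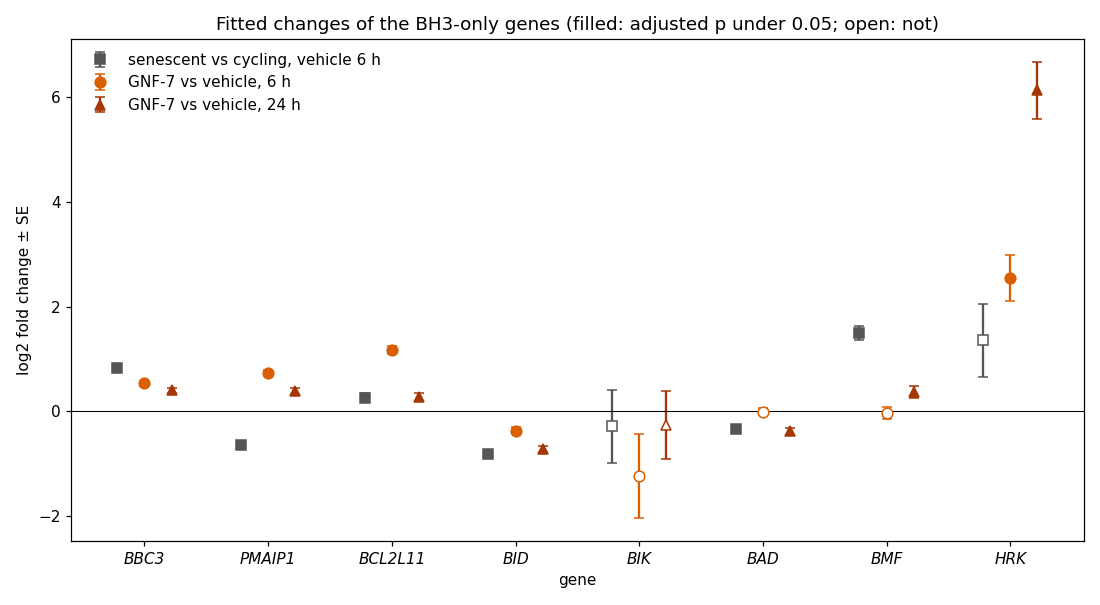
Log2 fold changes with standard errors of the BH3-only genes in senescent against cycling cells and in GNF-7 against vehicle at 6 h and 24 h, filled where the adjusted p was under 0.05. HRK reaches 6.13 at 24 h and BID lies below 0 in each of the 3 comparisons.

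Among the BH3-only proteins that can activate BAX and BAK directly, BBC3 encodes PUMA, a classic p53 target (chr19:47220822-47232766, minus strand). BBC3 was at 39.2, 33.8 and 32.3 CPM in the cycling libraries and at 62.2, 62.7 and 60.9 CPM in senescent vehicle libraries at 6 h. GNF-7 libraries of 6 h held 87.8, 86.2 and 95.5 CPM. At 24 h BBC3 was at 66.9, 67.5 and 72.6 CPM in vehicle and 93.0, 92.0 and 88.7 CPM in GNF-7. Each senescent library was above each cycling library, and each GNF-7 library above each vehicle library of its time. The log2 fold change of BBC3 was 0.82 (SE 0.055, adjusted p 1.17e-20) in senescent against cycling cells, 0.54 (SE 0.051, adjusted p 1.2e-13) with GNF-7 at 6 h and 0.40 (SE 0.051, adjusted p 3.6e-10) at 24 h. The GNF-7 effects at the 2 times differed by -0.13 (SE 0.072, adjusted p 0.163), which missed the threshold. BBC3 exons overlap the microRNA genes MIR3190 and MIR3191.

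BCL2L11 encodes BIM, which binds all the survival proteins and is a known target of FOXO factors and of CHOP (chr2:111119378-111168447, plus strand). BCL2L11 stood at 17.5, 14.3 and 14.0 CPM in the cycling libraries and at 19.1, 19.3 and 16.3 CPM in the senescent vehicle libraries of 6 h, so these groups overlapped. GNF-7 libraries of 6 h held 42.4, 40.4 and 41.0 CPM, well clear of every other library. At 24 h BCL2L11 was at 18.7, 18.9 and 21.3 CPM in vehicle and 24.9, 23.1 and 23.4 CPM in GNF-7, and each GNF-7 library was still above each vehicle library. The log2 fold change with GNF-7 was 1.18 (SE 0.075, adjusted p 5.88e-21) at 6 h and 0.28 (SE 0.077, adjusted p 0.0015) at 24 h. The interaction was -0.90 (SE 0.11, adjusted p 3.92e-10). Between GNF-7 at 6 h and at 24 h BCL2L11 fell by 0.80 (adjusted p 1.34e-14). The small rise in senescent against cycling cells (0.26, SE 0.082, adjusted p 0.00372) was no longer called without cycling replicate 3 (0.20, adjusted p 0.0512). BCL2L11 exons overlap the long non-coding gene MIR4435-2HG on the opposite strand, and the strand setting of the counting is not given in the sources used here. MIR4435-2HG was at -0.07 (adjusted p 0.42) with GNF-7 at 6 h and fell by 0.26 (adjusted p 0.000415) at 24 h.

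BID, which death-receptor signalling activates through cleavage by CASP8, was lower in senescence and lower again with GNF-7 at both times (chr22:17734138-17774770, minus strand). The cycling libraries held 73.0, 68.9 and 72.2 CPM and the senescent vehicle libraries of 6 h 39.7, 40.4 and 40.9 CPM. GNF-7 libraries of 6 h held 33.6, 29.2 and 31.1 CPM. At 24 h BID was at 36.9, 41.5 and 38.5 CPM in vehicle and 23.8, 23.2 and 24.3 CPM in GNF-7. Senescent vehicle did not overlap cycling, and GNF-7 did not overlap vehicle at either time. The log2 fold change was -0.82 (SE 0.056, adjusted p 1.27e-20) in senescence, -0.37 (SE 0.059, adjusted p 5.11e-07) with GNF-7 at 6 h and -0.71 (SE 0.061, adjusted p 4.29e-16) at 24 h, and the effect at 24 h was the larger (interaction -0.35, SE 0.084, adjusted p 0.000776). CASP8 RNA was at -0.10 (adjusted p 0.2) with GNF-7 at 6 h and fell by 0.23 (adjusted p 0.00164) at 24 h.

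PMAIP1 encodes NOXA, a sensitiser that binds MCL1 and the related survival protein BCL2A1 and is a known target of p53 and of ATF4 (chr18:59899948-59904306, plus strand). PMAIP1 measured 63.9, 71.4 and 74.6 CPM in the cycling libraries, and 43.0, 46.3 and 45.1 CPM in the senescent vehicle libraries of 6 h. GNF-7 libraries of 6 h held 79.9, 70.4 and 72.8 CPM. At 24 h the values were 52.6, 48.5 and 48.5 CPM in vehicle and 66.4, 62.9 and 66.1 CPM in GNF-7. PMAIP1 thus fell in senescence (-0.65, SE 0.054, adjusted p 1.93e-16), and with GNF-7 its libraries overlapped the cycling libraries: GNF-7 against cycling was 0.09 (adjusted p 0.127) at 6 h and -0.11 (adjusted p 0.0613) at 24 h. Against vehicle, the rise was 0.73 (SE 0.054, adjusted p 6.61e-18) at 6 h and 0.38 (SE 0.054, adjusted p 1e-08) at 24 h, a smaller effect at 24 h (interaction -0.35, SE 0.076, adjusted p 0.000197). No annotated gene overlaps PMAIP1.

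HRK, a sensitiser best known from dying neurons that binds BCL-XL and BCL2, was close to absent without GNF-7 (chr12:116856144-116881441, minus strand). HRK had 2, 0 and 4 counts in the cycling libraries, 4, 6 and 7 counts in senescent vehicle at 6 h and 1, 2 and 0 counts in senescent vehicle at 24 h. With GNF-7 it had 33, 31 and 38 counts at 6 h and 80, 92 and 77 counts at 24 h. Every GNF-7 library was above every library without GNF-7. In CPM the GNF-7 means were 1.11 ± 0.0824 at 6 h and 2.74 ± 0.223 at 24 h (SD, n = 3), so HRK stayed a low transcript. The ratio of depth-scaled counts was 5.95 at 6 h (exact 95% interval 3.54 to 10.6) and 78.2 at 24 h (26.4 to 382), the second resting on 249 against 3 counts, and these intervals cover counting error only. The fitted log2 fold change was 2.54 (SE 0.44, adjusted p 2.37e-06) at 6 h and 6.13 (SE 0.54, adjusted p 2.54e-15) at 24 h, with an interaction of 3.58 (SE 0.86, adjusted p 0.000677). Without vehicle replicate 2 of 24 h, which held 2 of the 3 counts, the fold change at 24 h was 6.98 and the interaction 4.44. With any single library left out, the fold change at 24 h ranged from 5.65 to 6.98 and the interaction from 3.11 to 4.44. Within GNF-7 cells HRK rose by 1.29 (SE 0.32, adjusted p 0.00055) from 6 h to 24 h, a comparison free of the near-empty vehicle libraries. Vehicle was at -2.29 over the same times, which is the larger part of the interaction and rests on 3 against 17 counts. Senescent against cycling cells (1.35, SE 0.70, adjusted p 0.0817) missed the threshold. HRK is in that comparison because its GNF-7 libraries passed the filter, and the groups hold 17 against 6 counts. It passed the threshold without cycling replicate 3 (2.2, adjusted p 0.0303). Without cycling replicate 2 it was at 0.77 (adjusted p 0.338), and without senescent vehicle replicate 3 of 6 h at 1.14 (adjusted p 0.2). No change in HRK is read from this comparison.

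Promoter sequence is shown for HRK and BCL2L11, the members with the largest and the next largest rise with GNF-7 at 6 h. RefSeq windows of 300 bases, from 250 before to 50 after the transcription start (GRCh38.p14), matched 7 of the 8 members with 13 windows. BIK had none. Both strands were searched for TGATGNAA, the C/EBP-ATF composite element that ATF4 and CHOP are known to bind, for its stricter form TGATGCAA, which it contains, and for the FOXO motif GTAAACA. The 250 bases before the start of HRK (chr12:116881442-116881691, minus strand) and of BCL2L11 (chr2:111120664-111120913, plus strand) follow, with the match in capitals.
HRK: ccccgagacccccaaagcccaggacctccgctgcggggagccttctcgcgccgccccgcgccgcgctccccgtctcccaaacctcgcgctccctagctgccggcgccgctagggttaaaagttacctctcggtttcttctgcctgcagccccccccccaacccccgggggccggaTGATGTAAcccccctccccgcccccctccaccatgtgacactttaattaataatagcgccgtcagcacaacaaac
BCL2L11: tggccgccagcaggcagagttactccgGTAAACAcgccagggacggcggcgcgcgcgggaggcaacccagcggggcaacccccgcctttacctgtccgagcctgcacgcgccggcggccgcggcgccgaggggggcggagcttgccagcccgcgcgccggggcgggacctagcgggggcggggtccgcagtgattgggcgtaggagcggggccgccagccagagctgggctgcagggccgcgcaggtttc
The HRK window held TGATGTAA beginning 75 bases before the start, and no other member's window held TGATGNAA, which 3.62% of all 35116 windows held. No member held TGATGCAA, which 0.87% of windows held. The BCL2L11 window held GTAAACA beginning 223 bases before the start, and 3.42% of windows held that motif. These are letter matches in a short window and not measured binding sites.

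BMF, a sensitiser that is held at the cytoskeleton by the dynein light chain DYNLL2, showed the largest called rise in senescence among the members (chr15:40087890-40108892, minus strand). The cycling libraries held 3.02, 3.06 and 2.35 CPM of BMF and the senescent vehicle libraries of 6 h held 6.49, 9.41 and 7.74 CPM, a rise of 1.49 on the log2 scale (SE 0.14, adjusted p 6.88e-15). GNF-7 libraries of 6 h held 7.23, 7.78 and 8.21 CPM, inside the vehicle range (-0.03, SE 0.12, adjusted p 0.885). At 24 h BMF was at 11.1, 12.0 and 12.0 CPM in vehicle and 15.6, 15.6 and 14.2 CPM in GNF-7, with no overlap (0.37, SE 0.11, adjusted p 0.00284). The interaction of 0.40 (SE 0.16, adjusted p 0.0539) missed the threshold, so the GNF-7 effects on BMF at 6 h and 24 h were not shown to differ in this fit. It passed in 8 of 22 alternative fits, among them those without vehicle replicate 1 of 6 h (adjusted p 0.0113), GNF-7 replicate 3 of 6 h (0.0499) and GNF-7 replicate 3 of 24 h (0.0479), and over all 22 the adjusted p ranged from 0.0113 to 0.311. BMF-AS1, on the opposite strand of BMF exons, had 2 counts in a single library and 0 in all others.

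BAD is phosphorylated by survival kinases such as AKT1 and PIM3, so that YWHA adaptor proteins hold it away from mitochondria (chr11:64269830-64284704, minus strand). Against vehicle it was called lower with GNF-7 at 24 h and not at 6 h, and it was vehicle that changed between the times. Cycling libraries held 31.5, 28.95 and 32.7 CPM of BAD and senescent vehicle libraries of 6 h held 25.5, 25.5 and 23.2 CPM, a log2 fold change of -0.33 (SE 0.068, adjusted p 1.95e-05). GNF-7 libraries of 6 h held 23.8, 23.4 and 26.5 CPM, which overlapped vehicle (-0.0073, SE 0.069, adjusted p 0.948). At 24 h BAD was at 33.7, 33.4 and 34.1 CPM in vehicle and 25.0, 27.5 and 25.5 CPM in GNF-7. The log2 fold change at 24 h was -0.38 (SE 0.067, adjusted p 1.86e-06) and the interaction -0.37 (SE 0.096, adjusted p 0.00173). Vehicle cells themselves had gained BAD between 6 h and 24 h (0.45, SE 0.067, adjusted p 5.41e-07), while GNF-7 at 24 h against 6 h was at 0.08 (adjusted p 0.357). BAD exons overlap GPR137 on the opposite strand, which was at -0.21 (adjusted p 0.001) with GNF-7 at 6 h and -0.27 (adjusted p 1.35e-05) at 24 h. In vehicle from 6 h to 24 h GPR137 rose by 0.18 (adjusted p 0.0117), the direction of BAD. In senescent against cycling cells GPR137 rose by 0.42 (adjusted p 7.02e-10), opposite to BAD.

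BIK, a sensitiser at the endoplasmic reticulum, had between 0 and 14 counts in a library, and its groups overlapped in senescence and in both GNF-7 comparisons (chr22:43110748-43129712, plus strand). Its counts were 5, 4 and 13 in cycling cells, 4, 6 and 9 in senescent vehicle and 5, 0 and 3 in GNF-7 at 6 h, and 10, 5 and 13 in vehicle and 6, 14 and 5 in GNF-7 at 24 h. The ratio of depth-scaled counts was 0.418 with GNF-7 at 6 h (exact 95% counting interval 0.158 to 0.999) and 0.841 at 24 h (0.47 to 1.5). Between GNF-7 at 6 h and 24 h the ratio was 3.15 (1.38 to 8.07) and the 24 h libraries were all above those of 6 h in CPM, but the test missed the threshold (adjusted p 0.0818). BIK was called in none of the 6 comparisons, and a change with GNF-7 against vehicle was not detectable at this depth.

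The members also moved with time in vehicle. From 6 h to 24 h in vehicle 5 of 8 members were called, 4 higher and 1 lower, against 18.5% of all genes, 9.26% higher and 9.29% lower. BMF rose by 0.57 (SE 0.12, adjusted p 0.000158) and BAD rose as given above. BBC3 (0.16, adjusted p 0.0263), PMAIP1 (0.16, adjusted p 0.0371) and HRK (-2.29, adjusted p 0.0377) were called narrowly. HRK is in this test because its GNF-7 libraries passed the filter, the vehicle groups hold 3 against 17 counts, and the call was lost with no filter (adjusted p 0.067) and with limma voom (adjusted p 0.0689), so no change in HRK is read from it. With no filter BBC3 (adjusted p 0.058) and PMAIP1 (adjusted p 0.0797) were not called either, nor was PMAIP1 with limma voom (adjusted p 0.062). Leaving out single libraries also ended these calls. Without vehicle replicate 1 of 6 h the adjusted p was 0.0551 for BBC3 and 0.165 for PMAIP1, without replicate 2 of 6 h it was 0.0721 for HRK, and without replicate 3 of 6 h it was 0.1 for BBC3, 0.0782 for PMAIP1 and 0.12 for HRK. Without vehicle replicate 1 of 24 h it was 0.224 for PMAIP1 and 0.11 for HRK, and without replicate 3 of 24 h 0.185 for BBC3 and 0.153 for HRK. Without vehicle replicate 2 of 24 h HRK was at -3.15 and still called. Scaling by library totals shifted the median of all genes in this comparison from 0.01 to -0.10, and BBC3 (0.04) and PMAIP1 (0.05) were then not called. In GNF-7 from 6 h to 24 h 5 of 8 were called, 2 higher and 3 lower, against 47.8% of all genes, 23.1% higher and 24.7% lower. BMF (0.97, SE 0.11, adjusted p 7.34e-11) and HRK were the members that rose, and BCL2L11, BID (-0.40, adjusted p 1.37e-07) and PMAIP1 (-0.19, adjusted p 0.00165) those that fell.

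The levels per exon length set PMAIP1 and BBC3 apart from BIK and HRK. In senescent vehicle cells at 6 h the level in CPM per kilobase of exon (RPKM) was 20.0 ± 0.749 for PMAIP1, 19.5 ± 0.293 for BBC3, 14.5 ± 0.777 for BAD and 9.07 ± 0.138 for BID (SD, n = 3). BCL2L11 followed at 2.74 ± 0.251, BMF at 1.45 ± 0.269, BIK at 0.222 ± 0.0964 and HRK at 0.0275 ± 0.00805 RPKM. In cycling cells the order was PMAIP1 (31.3 RPKM), BAD (18.2), BID (16.0) and BBC3 (11.0), so BBC3 stood below BAD and BID there. In GNF-7 at 24 h PMAIP1 (29.1 RPKM) and BBC3 (28.7 RPKM) led, BAD was at 15.2 and BID at 5.34, and HRK at 0.40 was above BIK at 0.287 RPKM. With the longest transcript in place of the union of exons the senescent vehicle values were 33.7 for BBC3, 23.0 for PMAIP1, 21.4 for BAD, 16.2 for BID and 3.49 for BCL2L11, so the order of PMAIP1 and BBC3 depends on the length used.

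**Figure D3:**
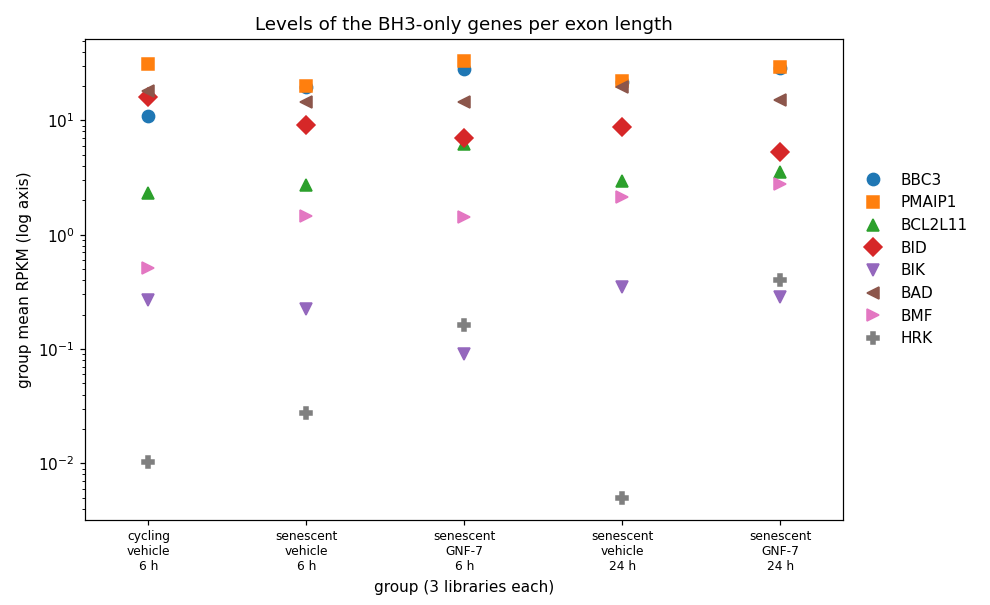
Group mean RPKM of the 8 BH3-only genes on a log axis in the 5 groups of 3 libraries. PMAIP1, BBC3, BAD and BID form the upper tier in every group (5.34 to 33.3 RPKM) except that BCL2L11 comes near BID in GNF-7 at 6 h (6.2 against 7.04 RPKM), and HRK moves from 0.00498 RPKM in vehicle to 0.4 RPKM in GNF-7 at 24 h.

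Across the 5 groups, neighbouring means often could not be separated. For BBC3 the order was cycling, vehicle 6 h, vehicle 24 h, GNF-7 6 h and GNF-7 24 h, and the last 2 did not differ in the test. For BID it was GNF-7 24 h, GNF-7 6 h, vehicle 24 h, vehicle 6 h and cycling, and the 2 vehicle groups did not differ. PMAIP1 had its 3 highest means (GNF-7 24 h, cycling and GNF-7 6 h) in a row with no called step between neighbours. The ends of that row did differ, with GNF-7 24 h below GNF-7 6 h (-0.19, adjusted p 0.00165). BCL2L11 in vehicle did not differ between 6 h and 24 h. BAD was lowest in GNF-7 6 h, vehicle 6 h and GNF-7 24 h, with no called step between them, and higher in cycling and vehicle 24 h. BMF did not differ between vehicle and GNF-7 at 6 h, and HRK did not differ between neighbours among the 3 groups without GNF-7. The 2 vehicle groups are not neighbours for HRK, and their narrow call is given above.

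The genes whose 5 group means most resembled each member's were found by the root mean square difference of centred log2 CPM over 11216 genes with a mean of at least 5 CPM. The closest to BBC3 was RETSAT (0.036), to PMAIP1 the long non-coding gene CHASERR (0.063), to BID the microtubule gene MAPRE1 (0.026), to BAD SNX22 (0.048) and to BMF LASP1NB (0.053). BCL2L11 was nearest the glucose transporter gene SLC2A3 (0.12), followed by KLF5 (0.12) and CYRIA (0.14). HRK had no match as close, and the nearest of 11217 genes were the stress gene NUPR1 (0.47), CLEC2D (0.54) and ADM2 (0.56). HRK averaged at most 2.74 CPM in a group, and the groups without GNF-7 held 17, 6 and 3 counts. Its values there rest on few counts and on the pseudocount of 0.1 CPM, so these distances say little about HRK. BMF's second match was the mitochondrial gene MT-CYB (0.088), and the mitochondrial share of counts also rose over the groups. The fit without mitochondrial genes kept every BMF call, but leaving them out mainly changes the scaling. Whether BMF moves with what raises the mitochondrial share was not tested.

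The partners of the BH3-only proteins were read from 5 lists of the same pathway. Of 8 tested survival and effector genes, GNF-7 raised 2 and lowered 1 at 6 h and raised 1 and lowered 1 at 24 h, with medians of 0.05 and 0.04. Over all genes 39.3% were called at 6 h and 58.9% at 24 h, with medians of 0.01 and 0.04, so the count at 6 h is near the background and that at 24 h below it. BCL2A1, a survival protein that PMAIP1 binds, rose from 0.649 ± 0.0542 to 1.64 ± 0.26 CPM at 6 h (1.33, SE 0.28, adjusted p 8.9e-05) and from 0.307 ± 0.149 to 2.75 ± 0.285 CPM at 24 h (3.11, SE 0.31, adjusted p 1.15e-13). BOK, an effector, fell by 0.31 (adjusted p 0.00115) and 0.48 (adjusted p 5.68e-07). The main guardians moved little: MCL1 rose by 0.13 (adjusted p 0.00275) at 6 h and was at -0.02 (adjusted p 0.592) at 24 h, and BCL2L1 was at 0.02 (adjusted p 0.694) and 0.02 (adjusted p 0.744). BAX and BAK1 were called at neither time. In senescent against cycling cells 3 of the 8 were higher and 5 lower, where 70.0% of all genes were called, among them BCL2 at -1.62 (adjusted p 2.59e-17) and MCL1 at -0.76 (adjusted p 4e-28).

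Among the transcription factors known to act on BH3-only genes more rose than fell with GNF-7 at 6 h, and the counts were nearly even at 24 h. Of 11 tested, 7 rose and 3 fell with GNF-7 at 6 h (median 1.05), and 5 rose and 4 fell at 24 h (median 0.79). Of all genes 39.3% were called at 6 h, 17.9% higher and 21.4% lower, with a median of 0.01. At 24 h 58.9% were called, 29.3% higher and 29.7% lower, with a median of 0.04. DDIT3 rose from 23.4 ± 0.347 to 154 ± 2.53 CPM at 6 h (2.72, SE 0.051, adjusted p 1.85e-48) and from 23.4 ± 1.69 to 190 ± 2.07 CPM at 24 h (3.02, SE 0.051, adjusted p 4.49e-51). ATF4 rose by 1.25 (adjusted p 1.65e-38) and 1.67 (adjusted p 1.65e-45). JUN fell most at 6 h (-0.74, adjusted p 1.45e-22) and E2F1 most at 24 h (-0.84, adjusted p 1.29e-10).

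In the remaining lists more genes fell than rose. Their counts stand beside 39.3% of all genes called at 6 h (17.9% higher and 21.4% lower, median 0.01) and 58.9% at 24 h (29.3% higher and 29.7% lower, median 0.04). Of 14 caspases, apoptosome genes and their inhibitors, 1 rose and 5 fell at 6 h (median -0.11), and 3 rose and 10 fell at 24 h (median -0.31). XIAP, a caspase inhibitor, rose by 0.16 (adjusted p 0.0165) and BIRC6 fell by 0.43 (adjusted p 1.14e-11) at 6 h. At 24 h DIABLO, which counters the inhibitors, rose by 0.52 (adjusted p 0.00189) and BIRC3 fell from 6.53 ± 0.218 to 2.43 ± 0.51 CPM (-1.42, adjusted p 2.25e-13). Of 16 partners and kinases that restrain BH3-only proteins, 2 rose and 9 fell at 6 h and 3 rose and 10 fell at 24 h, with medians of -0.15 and -0.29. PIM3 rose at both times (0.33 and 0.55, adjusted p 8.42e-08 and 4.42e-15), YWHAG fell most at 6 h (-0.53, adjusted p 5.23e-20), and SFN fell most at 24 h (-1.71, adjusted p 0.0112) from a level under 1 CPM. Of 5 other genes with a BH3-like helix none rose and 3 fell at 6 h and 4 fell at 24 h, led by RTL10 (-0.48, adjusted p 2.47e-08) at 6 h and BNIP3 (-0.36, adjusted p 7.84e-12) at 24 h. None of these counts was tested as a set.

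**Figure D4:**
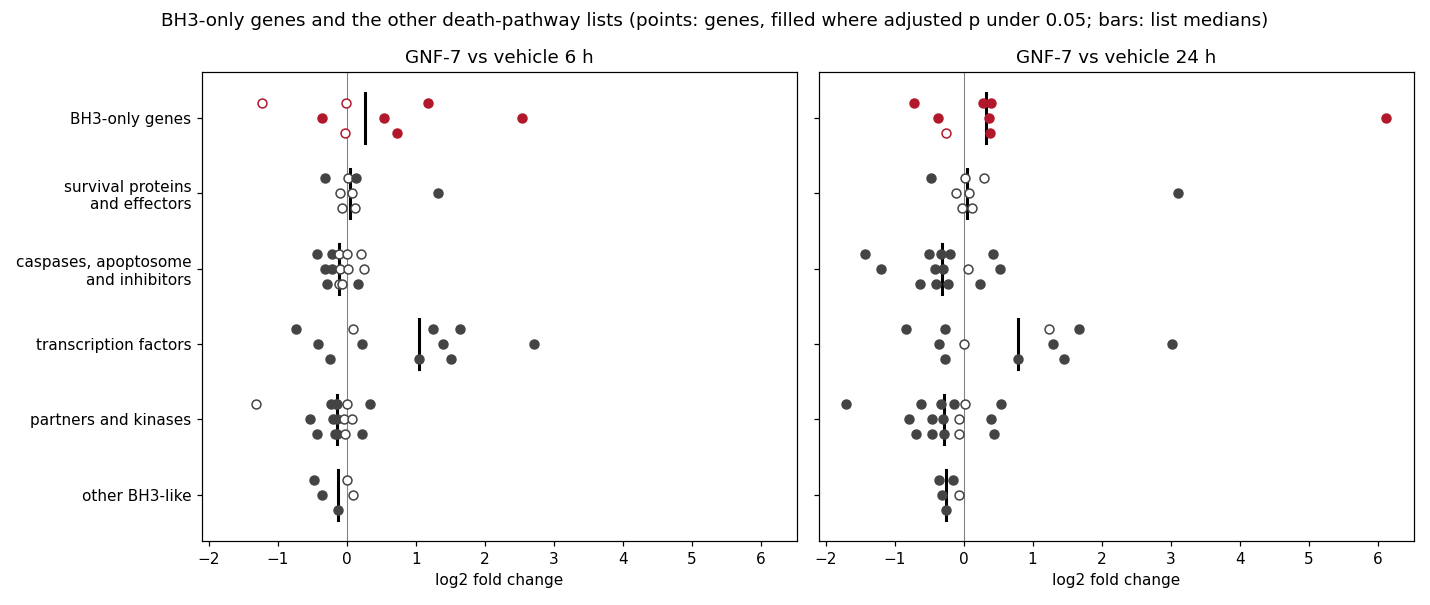
Log2 fold changes with GNF-7 against vehicle at 6 h (left) and 24 h (right) of the 8 BH3-only genes and of the tested genes of the 5 other lists, filled where the adjusted p was under 0.05, with a bar at each list's median. The BH3-only medians are 0.26 and 0.32 and those of the transcription factors 1.05 and 0.79.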

How the data were processed

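The deposited table holds the authors' raw counts for each Ensembl gene in 15 libraries from HT-1080 cells, 3 in each of 5 groups, with no normalization. Per the submitters' processing notes the tools were bcl2fastq (2.20.0.422), STAR (2.7.9a) and featureCounts (1.5.1) with build GRCh38. Per the labels' protocols the kit was a stranded mRNA kit. The annotation release and the strand setting are not given in the sources used here, so counts of genes that overlap others are uncertain. Of 60673 rows, 3 that made up 1 broken gene entry were dropped. Of the 60670 genes kept, 60400 (99.55%) had a symbol and 23229 had no count. Libraries of a group differed by more than sampling noise (chi-square per degree of freedom at least 3.02), and none was left out. The labels call the libraries biological replicates without saying what was separate. The p-values compare each change with a spread estimated over all 15 libraries, whatever its source.

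The test was edgeR's quasi-likelihood test (4.0.16, R 4.3.3, robust) after filterByExpr and TMM scaling, in a group-means model over all 15 libraries. The biological coefficient of variation was 4.64%. Benjamini-Hochberg adjustment was over 18563 genes, with calls at an adjusted p under 0.05. HRK passed the filter through its GNF-7 libraries. The standard error (SE) is the log2 fold change divided by the square root of F. CPM used TMM-scaled sizes, and RPKM the union of GENCODE 29 exons. Likeness used 0.1 CPM as pseudocount. Intervals on count ratios are exact 95% intervals. The code was tested on simulated counts.

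The genes named were the 8 members, 6 check genes (TERF2, CDKN1A, MKI67, LMNB1, ATF4 and DDIT3), genes overlapping members, for each member called the genes most like it, and from each pathway list the largest called rise and fall with GNF-7. BCL2, BCL2L1, MCL1, BAX, BAK1 and CASP8 were named after their values were seen. The members and lists were chosen with earlier results of these data known.

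The replicate numbers were taken as pairing the libraries where every same-numbered pair's deviations from the group means correlated above 0.1. That held for GNF-7 against vehicle at 24 h (0.154, 0.121 and 0.11) and for GNF-7 at 24 h against 6 h (0.255, 0.245 and 0.126), and for no other comparison. Alternatives were RLE size factors, library totals, no filter, a minimum mean of 5 CPM, DESeq2 (1.42.0), limma voom (3.58.1), only the groups compared, a replicate block, each library left out, the longest transcript as length, and stricter motifs. Leaving out mitochondrial genes, and the block with only the groups compared, were chosen after seeing the data.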

Additional observations from a re-analysis of the deposited data

Results flagged for a closer look

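The effect of GNF-7 against vehicle differed between 6 h and 24 h for 5 of the 8 BH3-only genes by the interaction term of the edgeR fit. The difference (24 h minus 6 h, log2) was -0.90 for BCL2L11 (adjusted p 3.92e-10), -0.35 for PMAIP1 (adjusted p 0.000197) and -0.35 for BID (adjusted p 0.000776). It was -0.37 for BAD (adjusted p 0.00173) and 3.58 for HRK (adjusted p 0.000677). For BCL2L11 and PMAIP1 a rise was smaller at 24 h, for BID a fall was deeper, for BAD a fall was called at 24 h and not at 6 h, and for HRK a rise was larger. The vehicle levels also moved between the times for some of them, among them BAD (0.45, adjusted p 5.41e-07), and HRK had 17 counts at 6 h and 3 counts at 24 h over the 3 vehicle libraries. BAD in GNF-7 was at 0.08 (adjusted p 0.357) between the times. HRK was at 1.29 in GNF-7 and at -2.29 in vehicle between the times. The larger part of the HRK difference is thus the vehicle change, which is not read as a change in HRK.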

How the results depend on the processing

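Of 788 alternative fold changes of the members, 738 kept their direction and their side of the threshold, 18 lost the call, 12 gained it and 20 changed sign. The number of members called moved beyond 1.5 times in the comparison of vehicle at 24 h and 6 h alone, where 5 were called, against 2 with no filter, 3 with limma voom and between 2 and 5 with a library left out. Sign changes were confined to values that were not called. For BAD with GNF-7 at 6 h these were 0.0015 with RLE size factors and with DESeq2, 0.0052 with library totals, 0.045 with a filter at a mean of 5 CPM, 0.0051 with only the groups compared (0.0042 with the replicate block added), and -0.067 to 0.039 with a library left out. For BMF with GNF-7 at 6 h they were 0.025 with the filter at 5 CPM and -0.15 to 0.12 with a library left out. BIK ranged from -0.66 to 0.31 in senescent against cycling cells and from -0.84 to 0.13 with GNF-7 at 24 h when a library was left out. With library totals BCL2L11 was at -0.0092 in vehicle over time, and BBC3 at -0.072 and BAD at -0.016 in GNF-7 over time. BBC3 in GNF-7 over time was at -0.0031 without mitochondrial genes and at -0.021 to 0.067 with a library left out. The cause of these changes was not tested.

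The replicate block changed no member's call where the replicate numbers paired the libraries, with 7 members called with GNF-7 at 24 h and 5 in GNF-7 over time, as without it. In the interaction, where pairing was not shown for all groups, BMF was called with the replicate block (0.39, adjusted p 0.0486). Over all 30 same-numbered pairs the correlation ran from -0.14 to 0.255, and 13 pairs had their highest correlation with their own number. BIK in GNF-7 over time (1.61, adjusted p 0.0818) was called with limma voom (1.91, adjusted p 0.0497) and without GNF-7 replicate 1 of 6 h (2.38, adjusted p 0.0497). BID in vehicle over time was called with library totals (-0.16, adjusted p 0.0314). Library totals moved the share of calls that were higher from 49.9% to 12.5% in vehicle over time and from 48.3% to 34.3% in GNF-7 over time, and the median of all genes in senescent against cycling cells from 0.06 to 0.19. HRK and BIK were not tested with the filter at 5 CPM or in some fits of only the groups compared. With glycine as the sole small residue allowed, 5 of 8 members held the BH3 motif. Depth limits BIK and, outside GNF-7, HRK, where a library with 0 counts allows up to 3 counts.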
